A study of Homo sapiens with 8 samples.

Results

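The 40 genes described here are the transcription factor ATF4, genes it is known to control, and the chaperone and degradation genes of the unfolded protein response. They were picked by name from 25162 named genes measured by RNA sequencing in HMLE, an immortalized epithelial line from the human breast, by a rule that uses no measured value but was made with earlier results of these data known. The cells of all 4 groups carried a lentiviral shRNA and were selected with puromycin at 0.5 µg/mL. The groups were cells with a scrambled shRNA (SHC002), either untreated or treated for 16 h with TGF-β, and cells with 1 shRNA against SOX4 (TRCN0000018213), again untreated or treated for 16 h with TGF-β. The labels used here give no TGF-β dose. Each group had 2 libraries. A single shRNA was used, so an effect of losing SOX4 and an effect of that shRNA on other transcripts cannot be told apart. Whether these were separate cultures is not stated in the labels, so every p-value measures the spread of these samples alone, and that spread may be technical.

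ATF4 is translated when the initiation factor eIF2α is phosphorylated by one of several stress kinases. It switches on genes for amino acid synthesis, amino acid uptake and tRNA charging, together with feedback genes that restore translation. The unfolded protein response uses one of these kinases, PERK (EIF2AK3), beside the IRE1 (ERN1) and ATF6 sensors of the endoplasmic reticulum (ER), and through XBP1 and ATF6 it raises chaperones and degradation factors of the ER. Secretory epithelial cells use the ER arm when they make large amounts of exported protein. ATF4 and XBP1 are regulated largely by translation and by splicing, which transcript levels do not show.

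Promoter sequences are shown for some members whose promoter window holds one of the 2 elements that define these arms. They are HSPA5 and GARS1, each called in a comparison below, and XBP1, which was not called. RefSeq windows (GRCh38.p14) from 250 bases before to 50 bases after the annotated start were found for 37 of the 40 members, and PSPH, SHMT2 and SLC7A11 had no entry. The ER stress response element was searched as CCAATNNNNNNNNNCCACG and the C/EBP-ATF core as TGATGNAA, each on both strands, and no member held both. The 250 bases before the start follow, read 5′ to 3′ along the gene, with the match in capitals. HSPA5 and XBP1 hold the ER stress response element, and GARS1 holds the C/EBP-ATF core as its reverse complement.
HSPA5, chr9:125241344-125241593, minus strand: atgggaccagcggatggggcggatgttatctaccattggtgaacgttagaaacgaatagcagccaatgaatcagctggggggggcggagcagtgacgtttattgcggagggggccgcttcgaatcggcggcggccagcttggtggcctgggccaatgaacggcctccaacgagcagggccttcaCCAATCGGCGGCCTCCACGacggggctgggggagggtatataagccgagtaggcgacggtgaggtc
XBP1, chr22:28800570-28800819, minus strand: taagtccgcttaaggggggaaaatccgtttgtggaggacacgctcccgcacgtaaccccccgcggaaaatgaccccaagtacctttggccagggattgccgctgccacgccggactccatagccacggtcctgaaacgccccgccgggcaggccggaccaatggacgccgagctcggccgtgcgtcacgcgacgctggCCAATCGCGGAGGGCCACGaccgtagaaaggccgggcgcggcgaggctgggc
GARS1, chr7:30594628-30594877, plus strand: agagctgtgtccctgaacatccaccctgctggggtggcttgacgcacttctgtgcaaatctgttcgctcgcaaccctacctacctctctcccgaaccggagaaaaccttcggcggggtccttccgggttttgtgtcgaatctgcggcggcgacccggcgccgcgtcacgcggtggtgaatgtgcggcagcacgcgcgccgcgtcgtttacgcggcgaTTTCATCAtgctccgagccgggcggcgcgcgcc

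The ER stress response element was present in 5 of the 37 member genes (13.5%), against 25 of 27305 genes in the whole table (0.0916%). The 5 were HSPA5, XBP1, CALR, CRELD2 and HSP90B1, all from the ER group, and HSP90B1 held 2 copies. The copy in HSPA5 spanned positions -66 to -48 from the start and the copy in XBP1 positions -52 to -34. The C/EBP-ATF core was present in 10 of 37 members (27%), against 1217 of 27305 genes (4.46%). It was found in the tRNA synthetase genes AARS1, CARS1, GARS1, IARS1, MARS1 and NARS1, and in ASNS, CHAC1, HERPUD1 and SLC3A2. In GARS1 it lay at -33 to -26 and in ASNS, where it read TGATGAAA, at -68 to -61. In AARS1, CHAC1 and HERPUD1 it read TTGCATCA, at -187 to -180, -209 to -202 and -176 to -169. Neither element was found in DNAJB9, EDEM1, SESN2, PPP1R15A or DDIT4, which were called in comparisons below. The members were picked as known genes of these arms, so a share above that of all genes was built into the choice. The matches are descriptions of letters in a fixed window and are not evidence that a factor bound there.

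**Figure D1:**
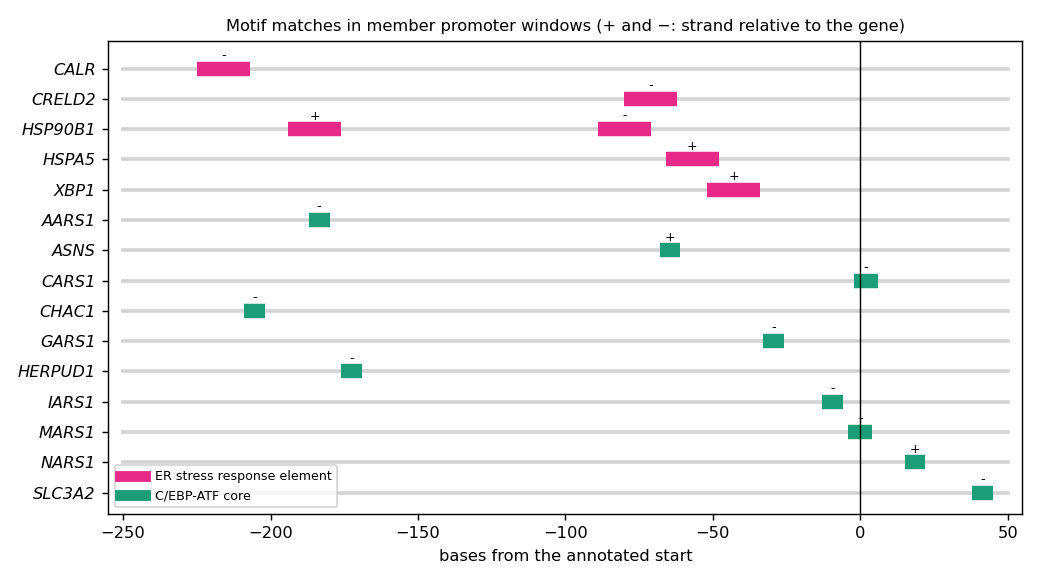
Motif matches in the promoter windows of the 15 members that hold one, plotted as bases from the annotated start (position on the horizontal axis, member on the vertical axis). Pink bars are the ER stress response element and green bars the C/EBP-ATF core, with the strand relative to the gene; all 5 genes with pink bars belong to the ER group.

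Expression is given as FPKM, read counts divided by transcript length and by library depth, from a table in which cells of middling size had lost their decimal mark. The mark was missing from 70.5% of the members' cells. It was restored from the whole numbers of reads behind the values, weighed together with the level and with how close the readings of the libraries lie. Of the 40 members, 22 were tested in a fit of 5458 genes whose restored values rest on whole reads, here called the whole-read fit. Another 14 were tested in a fit of all 11059 genes whose comparisons could be settled, here called the wider fit, and 4 were in neither. Members of the wider fit are named as such, and where a gene had several transcripts only the most abundant one was tested, so its value is not the gene's total. Fold changes are differences of log2(FPKM + 1), which understates the change of low genes, and a gene is called where its Benjamini-Hochberg adjusted p from limma was under 0.05. Among genes simulated with a 1.5-fold TGF-β difference in scrambled-shRNA cells, 46.9% were called, and of those with a 2-fold difference 100%. Only genes above a minimum mean of reads were given a difference. The simulated spread was a fixed setting, equal in all groups and not estimated from these libraries, and no knockdown effect was simulated. These shares therefore hold for the simulated setting alone.

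The labels were checked first. SOX4 was at 8.74 and 8.04 FPKM untreated and 18.7 and 17.6 with TGF-β in scrambled-shRNA cells, and 0.923 and 1.02 untreated and 2.37 and 1.88 with TGF-β in SOX4-shRNA cells, and its log2 fold change with the SOX4 shRNA was -2.25 ± 0.13 (SE) untreated and -2.62 ± 0.13 with TGF-β. TGFBI, a matrix gene induced by TGF-β, was at 179 and 195 FPKM untreated and 999 and 1009 with TGF-β in scrambled-shRNA cells, and 82.2 and 82.2 untreated and 1023 and 1112 with TGF-β in SOX4-shRNA cells. The keratin KRT5 was at 2886 FPKM or more in every library and KRT14 at 1446 or more, CDH1 was at 74.1 to 95.4, and KRT19 did not exceed 0.376. The fibroblast markers LUM and PDGFRA, the endothelial markers PECAM1, CDH5 and VWF, and the leukocyte markers PTPRC and CD3E were below 1 FPKM in every library. DCN reached 1.11 FPKM at the lowest possible readings of its cells, which were not weighed, and its highest possible cell was 110.7 FPKM. CD68, which is not restricted to leukocytes, read from 0.00239 to 217. The depth by which the libraries were scaled, recovered from the values, ran from 11612000 to 15433000 reads, and the median gene of the whole-read fit had 376 to 507.5 reads per library. The SD of the log2 difference between the 2 libraries of a group was 0.251 and 0.236 in the scrambled-shRNA groups, untreated and with TGF-β, and 0.340 and 0.331 in the SOX4-shRNA groups.

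TGF-β in scrambled-shRNA cells came with higher levels of the ER genes DNAJB9, HSPA5 and EDEM1 and of 3 genes of the ATF4 arm. Of the 22 members in the whole-read fit, 6 were called higher (these 3 with SESN2, SLC7A11 and GARS1) and 0 lower, where 4.65% of the 5425 genes tested were called higher and 2.01% lower. The members' log2 fold changes had a median of 0.36, against -0.03 over all genes, and 20 of the 22 lay above 0. Both TGF-β libraries were above both untreated ones in 14 of the 22, where 28.6% of all genes were, and below in 1 (SLC7A5), where 34.4% were. The 12 members tested in the wider fit had 0 calls, with 5 at an unadjusted p under 0.05 (17.6% of all its genes), against 0.784% of its genes called higher and 0.134% lower. The 6 calls were made with the spread of all 8 libraries pooled. Leaving out any 1 of the 4 scrambled-shRNA libraries, which leaves a group with a single library, ended all 6, with the count over all genes falling to as few as 21. All 6 held without any 1 of the 4 SOX4-shRNA libraries.

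In SOX4-shRNA cells TGF-β came with 2 member calls, DNAJB9 and PPP1R15A, both higher, where 5.28% of 5418 genes were called higher and 1.97% lower. The median log2 fold change of the 22 members was 0.27, against -0.04 over all genes, and 18 lay above 0. Both TGF-β libraries were above both untreated ones in 13 of the 22, against 19.8% of all genes, and in 0 were both below, against 24.1%. The wider fit called 0 of 13 members, with 4 at an unadjusted p under 0.05 (17.2% of all its genes), against 1.56% of its genes called higher and 0.248% lower. The DNAJB9 call was lost without untreated replicate 1, and without replicate 1 of the TGF-β group, of the SOX4-shRNA cells. The PPP1R15A call was lost without either SOX4-shRNA TGF-β library, without untreated replicate 2 of those cells, and without either scrambled-shRNA TGF-β library.

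SOX4 knockdown in untreated cells came with 2 member calls, SESN2 and SLC7A11, both higher, where 1.16% of 5423 genes were called higher and 3.1% lower. The median over the 22 members was 0.23, against -0.01 over all genes, with 18 above 0. Both knockdown libraries were above both control libraries in 13 of 22, against 23.3% of all genes, and below both in 0, against 23.1%. The wider fit called 0 of 13, with 3 at an unadjusted p under 0.05 (13.5% of all its genes), against 0.114% of its genes called higher and 0.562% lower. Both calls were near the threshold, and both were lost without any 1 of the 4 scrambled-shRNA libraries. SESN2 was also lost without SOX4-shRNA untreated replicate 1, and SLC7A11 without any other SOX4-shRNA library than that one. These comparisons are not independent of one another: the TGF-β comparison in scrambled-shRNA cells and the knockdown comparison in untreated cells share the 2 untreated control libraries, and each of the 4 comparisons shares a group with 2 of the others.

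SOX4 knockdown with TGF-β came with 2 other calls, PPP1R15A and DDIT4, both higher, where 1.13% of 5422 genes were called higher and 2.73% lower. The median over the 22 members was 0.10, against 0.01 over all genes, with 17 above 0. Both knockdown libraries were above both controls in 10, against 23% of all genes, and below both in 1 (EDEM1), against 23.5%. The wider fit called 0 of 14, with 2 at an unadjusted p under 0.05 (12.5% of all its genes), against 0.0759% of its genes called higher and 0.588% lower. Both calls were lost without any 1 of the 4 TGF-β libraries and were kept without any 1 of the 4 untreated ones.

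**Figure D2:**
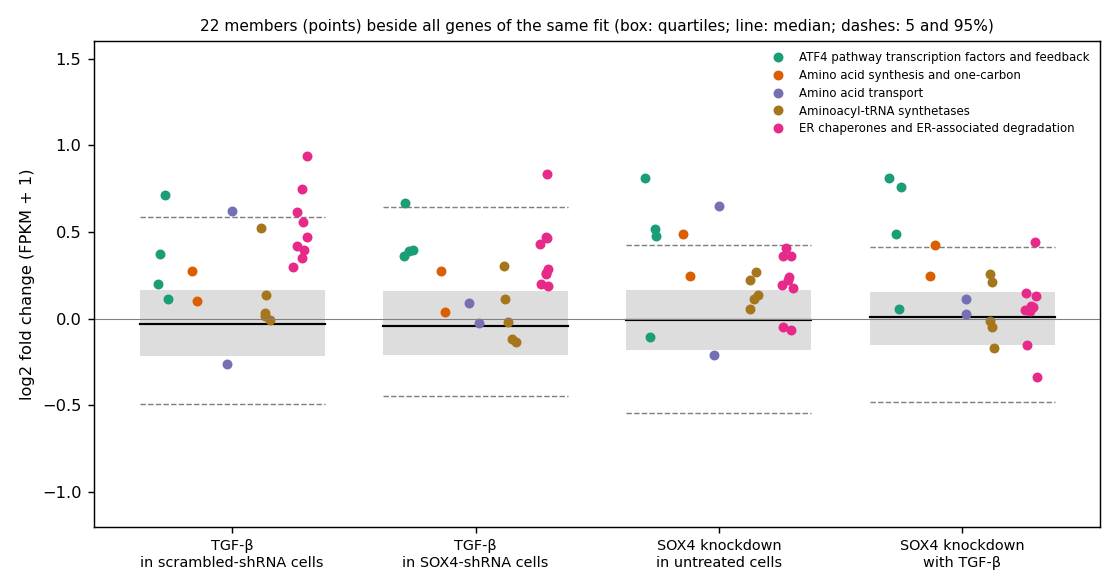
Log2 fold change on the log2(FPKM + 1) scale (vertical axis) of the 22 members of the whole-read fit (points, coloured by role) in the 4 comparisons (horizontal axis), beside all genes of the same fit (grey box, quartiles; black line, median; dashed lines, 5th and 95th percentiles). With TGF-β in scrambled-shRNA cells all 9 ER members lie above the upper quartile of all genes.

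The transcription factors and feedback genes come first. ATF4 itself was among the most abundant members, at 394 and 416 FPKM untreated and 526 and 538 with TGF-β in scrambled-shRNA cells, and 442 and 457 untreated and 555 and 590.1 with TGF-β in SOX4-shRNA cells. Every TGF-β library was above the untreated libraries of the same shRNA, but the log2 fold changes of 0.39 ± 0.07 (adjusted p = 0.0746) and 0.35 ± 0.07 (adjusted p = 0.0860) did not pass in the wider fit. Its knockdown differences were 0.15 ± 0.07 untreated and 0.10 ± 0.07 with TGF-β. ATF5, a related factor that is translated under the same stress, was at 13.0 and 11.9 FPKM untreated and 10.1 and 6.49 with TGF-β in scrambled-shRNA cells, and 12.0 and 9.47 untreated and 11 and 9.04 with TGF-β in SOX4-shRNA cells, or at 10 times these values throughout, since its level was not settled. It had the smallest p of the members below 0 for TGF-β in scrambled-shRNA cells (-0.56 ± 0.22, adjusted p = 0.275, wider fit). CEBPB, a dimer partner of ATF4, ran from 14.3 to 26.7 FPKM with overlapping groups in all 4 comparisons.

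PPP1R15A encodes GADD34, the phosphatase subunit that reverses eIF2α phosphorylation (chr19:49375469-49379316 in GRCh37). It was at 17.1 and 20.6 FPKM untreated and 24.3 and 24.9 with TGF-β in scrambled-shRNA cells, and 28.8 and 25.9 untreated and 45.3 and 42.8 with TGF-β in SOX4-shRNA cells. The 4 groups did not overlap, and the SOX4-shRNA cells with TGF-β were the highest. The log2 fold change with TGF-β was 0.67 ± 0.12, adjusted p = 0.0182, in SOX4-shRNA cells, and 0.37 ± 0.12, adjusted p = 0.115, in scrambled-shRNA cells. With knockdown it was 0.81 ± 0.12, adjusted p = 0.0132, in TGF-β-treated cells, and 0.52 ± 0.12, adjusted p = 0.0634, in untreated cells, so a call was made in 2 of the 4 comparisons.

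DDIT4 encodes REDD1, an inhibitor of the growth kinase complex mTORC1 (chr10:74033678-74035794 in GRCh37). It was at 145 and 125 FPKM untreated and 148 and 143 with TGF-β in scrambled-shRNA cells, and 207 and 169 untreated and 238 and 256 with TGF-β in SOX4-shRNA cells. All 4 SOX4-shRNA libraries were above all 4 scrambled-shRNA libraries. The knockdown difference passed with TGF-β (0.76 ± 0.13, adjusted p = 0.0223) and not in untreated cells (0.48 ± 0.13, adjusted p = 0.0968). The TGF-β differences were 0.12 ± 0.13 in scrambled-shRNA cells, where the groups overlapped, and 0.40 ± 0.13 in SOX4-shRNA cells.

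SESN2 encodes sestrin 2, a leucine-binding inhibitor of mTORC1 signalling (chr1:28586029-28609002 in GRCh37). It was at 6.57 and 5.12 FPKM untreated and 9.65 and 10.7 with TGF-β in scrambled-shRNA cells, and 12.5 and 9.61 untreated and 13.7 and 15.7 with TGF-β in SOX4-shRNA cells, counted from 215 to 790 reads. The 2 untreated control libraries were the lowest of the 8. The fold change passed for TGF-β in scrambled-shRNA cells (0.71 ± 0.16, adjusted p = 0.0409) and for knockdown in untreated cells (0.81 ± 0.16, adjusted p = 0.0358). The other 2 comparisons gave 0.39 ± 0.16, adjusted p = 0.202, for TGF-β in SOX4-shRNA cells, and 0.49 ± 0.16, adjusted p = 0.183, for knockdown with TGF-β.

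TRIB3, a pseudokinase that holds ATF4 signalling back, was at 7.95 and 5.0 FPKM untreated and 8.75 and 8.46 with TGF-β in scrambled-shRNA cells, and 11.1 and 6.55 untreated and 10.3 and 18.1 with TGF-β in SOX4-shRNA cells, or at 10 times these values. Its 2 SOX4-shRNA libraries with TGF-β lay far apart, and its 4 log2 fold changes of 0.38 to 0.62 had an SE of 0.35 in the wider fit, with no call. DDIT3, CHAC1 and VLDLR could not be tested. CHAC1, which encodes a glutathione-degrading enzyme, was at 7.85 and 5.83 FPKM untreated and 15.1 and 16.1 with TGF-β in scrambled-shRNA cells, and 18.1 and 13.1 untreated and 21.1 and 31.6 with TGF-β in SOX4-shRNA cells at the most probable readings of the more abundant of its 2 transcripts, which carried a probability of 0.644. The values of the 2 untreated control libraries are the lowest possible ones. Replicate 1 could also be at 78.5 FPKM, and replicate 2 at 58.3 or 583 FPKM. Those of the other 6 could be 10 times lower, and all of these but TGF-β replicate 2 of the scrambled-shRNA cells could be 10 times higher, and no comparison of CHAC1 was settled. DDIT3, which encodes the stress factor CHOP, was split over 6 transcripts. In the transcript with the highest mean the intact cells read 0 in untreated control replicate 2 and 0.000813 in untreated SOX4-shRNA replicate 1, and the lowest readings of the other libraries ran from 1.42 to 9.16 FPKM. VLDLR, a lipoprotein receptor and ATF4 target, did not reach the minimum of 1 FPKM in 2 libraries. Its main transcript had intact values from 0 to 0.882 in 7 libraries and at least 1.43 in the eighth, a scrambled-shRNA library with TGF-β.

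**Figure D3:**
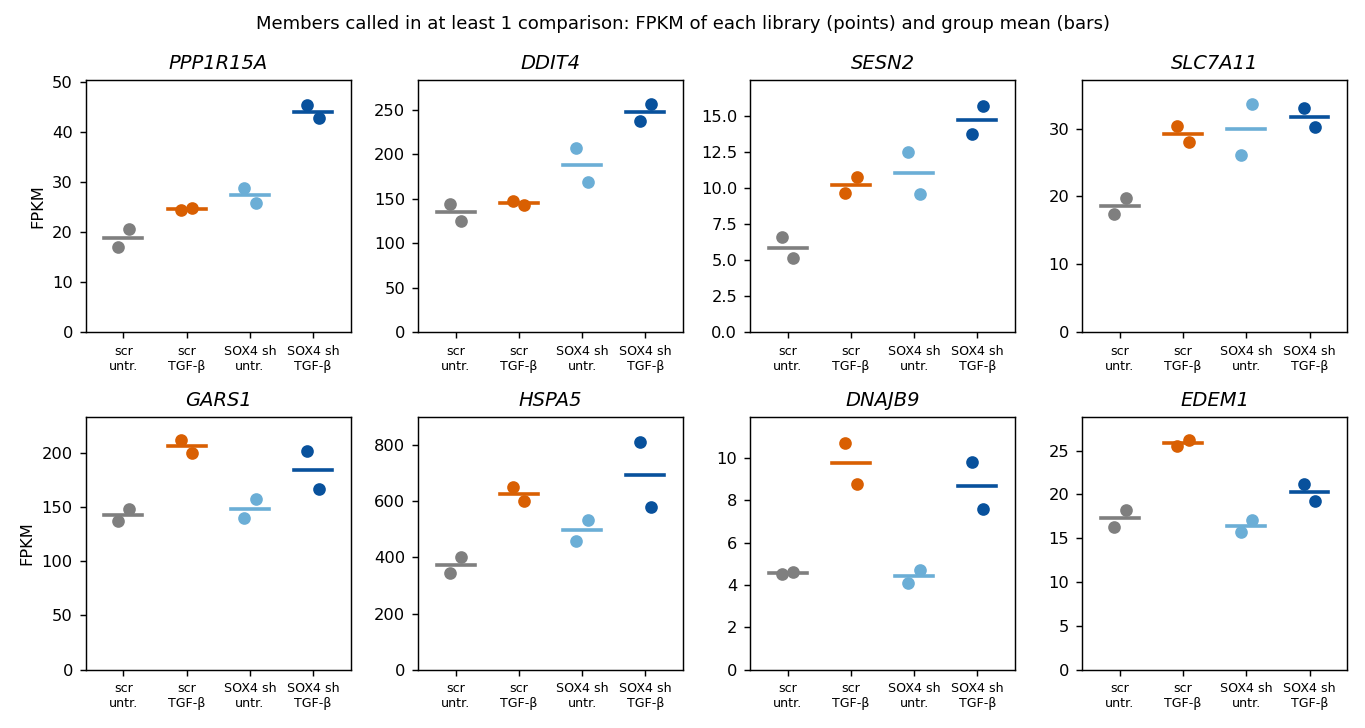
FPKM (vertical axes, from 0) of the 8 members called in at least 1 comparison, in each library (points) of the 4 groups (horizontal axes), with the group mean as a bar. DNAJB9 is high in the TGF-β groups of both shRNAs, DDIT4 in both SOX4-shRNA groups, and SESN2 and SLC7A11 are lowest in untreated scrambled-shRNA cells.

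The amino acid synthesis genes gave no call. PHGDH, the first enzyme of serine synthesis, was at 67.6 and 63.9 FPKM untreated and 76.1 and 83.4 with TGF-β in scrambled-shRNA cells, and 84.6 and 72.0 untreated and 88.3 and 101 with TGF-β in SOX4-shRNA cells. Its log2 fold changes were 0.27 ± 0.13 and 0.27 ± 0.13 with TGF-β and 0.24 ± 0.13 and 0.25 ± 0.13 with knockdown, and adjusted p was 0.235 or more in each. PSAT1, the second enzyme, was at 99.2 and 96.4 FPKM untreated and 124 and 114 with TGF-β in scrambled-shRNA cells, and 142 and 159 untreated and 173 and 152 with TGF-β in SOX4-shRNA cells. All 4 SOX4-shRNA libraries were above all 4 scrambled-shRNA ones, with a difference of 0.61 ± 0.10, adjusted p = 0.0766, in untreated cells and 0.45 ± 0.10, adjusted p = 0.151, with TGF-β (wider fit). With its 2 transcripts summed, the second difference became -0.32, and the TGF-β difference in scrambled-shRNA cells, 0.28 for the most abundant transcript, became 0.90. PSPH, the last enzyme of the pathway, likewise had its 4 SOX4-shRNA libraries, at 20.7 to 21.8 FPKM, above the 4 scrambled-shRNA ones, at 13.3 to 16.4. Its knockdown differences were 0.49 ± 0.12, adjusted p = 0.0728, untreated and 0.43 ± 0.12, adjusted p = 0.128, with TGF-β.

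SHMT2 and MTHFD2 carry the serine-derived one-carbon unit in mitochondria. SHMT2 was at 136 and 132 FPKM untreated and 135 and 135 with TGF-β in scrambled-shRNA cells, and 137 and 119.7 untreated and 145 and 166 with TGF-β in SOX4-shRNA cells, and MTHFD2 from 8.54 to 15.7 FPKM, or 10 times that. For MTHFD2 all 4 SOX4-shRNA libraries were above all 4 scrambled-shRNA ones, with differences of 0.49 ± 0.14, adjusted p = 0.221, untreated and 0.28 ± 0.14, adjusted p = 0.510, with TGF-β (wider fit). ASNS, which makes asparagine and is a standard readout of ATF4, was at 5.12 and 31.2 FPKM untreated and 15.7 and 10.1 with TGF-β in scrambled-shRNA cells, and 15.3 and 15.8 untreated and 13.4 and 18.2 with TGF-β in SOX4-shRNA cells at its most probable readings. These are readings of 1 of its 6 transcripts and carried a probability of 0.343, against 0.259 for the next most probable ones. At other possible readings another ASNS transcript would be the most abundant. The level of ASNS was not settled. Only TGF-β in SOX4-shRNA cells (0.01 ± 0.73) and knockdown with TGF-β (0.29 ± 0.73) could be tested for it.

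SLC7A11 is the transport subunit of the cystine-glutamate exchanger (chr4:139085251-139163503 in GRCh37, with SLC7A11-AS1 on the other strand; whether counting used strand is not given in the sources used here). It was at 17.4 and 19.8 FPKM untreated and 30.3 and 28 with TGF-β in scrambled-shRNA cells, and 26.2 and 33.6 untreated and 33.0 and 30.3 with TGF-β in SOX4-shRNA cells. The 2 untreated control libraries were below the other 6. The fold change passed for TGF-β in scrambled-shRNA cells (0.62 ± 0.14, adjusted p = 0.0427) and for knockdown in untreated cells (0.65 ± 0.14, adjusted p = 0.0480). It was 0.09 ± 0.14 for TGF-β in SOX4-shRNA cells and 0.11 ± 0.14 for knockdown with TGF-β, where the groups overlapped. SLC7A5, the LAT1 transporter of large neutral amino acids, was at 773 and 641 FPKM untreated and 575 and 602 with TGF-β in scrambled-shRNA cells, and 755 and 489 untreated and 534 and 671 with TGF-β in SOX4-shRNA cells. Both TGF-β libraries were below both untreated ones in scrambled-shRNA cells (-0.26 ± 0.21, adjusted p = 0.498), and the other comparisons overlapped. SLC3A2, the heavy chain that both transporters share, was at 10.2 and 13.4 FPKM untreated and 7.76 and 6.89 with TGF-β in scrambled-shRNA cells, and 7.67 and 11.1 untreated and 5.03 and 16.8 with TGF-β in SOX4-shRNA cells for its most abundant of 5 transcripts, a non-coding RefSeq record that does not encode the protein, with a wider-fit difference of -0.61 ± 0.49, adjusted p = 0.590, for TGF-β in scrambled-shRNA cells.

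Of the 9 aminoacyl-tRNA synthetase genes, which charge tRNAs with amino acids, GARS1 alone was called, in 1 comparison. The glycyl-tRNA synthetase gene GARS1 (chr7:30620149-30673649 in GRCh37, with GARS1-DT on the other strand) was at 137 and 148 FPKM untreated and 212 and 199.9 with TGF-β in scrambled-shRNA cells, and 140.1 and 157 untreated and 201 and 166 with TGF-β in SOX4-shRNA cells. Both TGF-β libraries were above both untreated ones for either shRNA. The difference was 0.52 ± 0.13, adjusted p = 0.0486, in scrambled-shRNA cells and 0.30 ± 0.13, adjusted p = 0.199, in SOX4-shRNA cells. AARS1, with the same promoter element, was at 50.6 and 51.7 FPKM untreated and 51.4 and 50.6 with TGF-β in scrambled-shRNA cells, and 60.8 and 63.2 untreated and 61.5 and 61 with TGF-β in SOX4-shRNA cells. Its TGF-β differences were 0.00 and -0.02 with an SE of 0.10, while its 4 SOX4-shRNA libraries were above the 4 scrambled-shRNA ones (0.27 ± 0.10 and 0.26 ± 0.10, adjusted p = 0.178 and 0.220).

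SARS1, the seryl-tRNA synthetase gene, was at 124 and 133 FPKM untreated and 159 and 157 with TGF-β in scrambled-shRNA cells, and 106 and 102 untreated and 137 and 129 with TGF-β in SOX4-shRNA cells. Its TGF-β differences were 0.30 ± 0.08 and 0.34 ± 0.08, and its knockdown differences -0.30 ± 0.08 and -0.25 ± 0.08, with all adjusted p at 0.0987 or more (wider fit). The knockdown libraries were below the controls in both. NARS1 ran from 93.2 to 126 FPKM, EPRS1 from 58.7 to 88.0 and MARS1 from 90.2 to 108, and their 12 log2 fold changes lay between -0.13 and 0.22. IARS1 and CARS1, represented by 1 of several transcripts, had an SE of 0.44 or more in the wider fit and no call. WARS1 was split over 4 transcripts of which none was settled. The most abundant had lowest possible values from 1.10 to 5.52 FPKM, each possibly 10 or 100 times higher.

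In the whole-read fit the ER group had the highest median of the 5 roles for TGF-β in scrambled-shRNA cells. All 9 of its members tested there lay above 0, from 0.30 to 0.94 with a median of 0.47, and in all 9 both TGF-β libraries were above both untreated ones. Over all genes 44.9% lay above 0 and 28.6% had both TGF-β libraries higher. In SOX4-shRNA cells all 9 lay above 0 again, with a median of 0.29, and the libraries did not overlap in 6, against 43.7% of all genes above 0 and 19.8% with both libraries higher. The 4 tested members of the transcription factor and feedback group had a higher median there, of 0.39. For SOX4 knockdown the ER group had 0 calls and medians of 0.23 untreated and 0.07 with TGF-β. At an unadjusted p under 0.05 it had 1 member in each of these 2 comparisons, where 18.9% and 16.7% of all genes were. For TGF-β it had 7 and 6, where 24.1% and 23.2% of all genes were. In bulk RNA a higher share of cells with an active response and a higher level per cell cannot be told apart.

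DNAJB9 encodes ERdj4, a co-chaperone of BiP that is controlled by XBP1 (chr7:108210311-108215294 in GRCh37). It was at 4.54 and 4.61 FPKM untreated and 10.7 and 8.76 with TGF-β in scrambled-shRNA cells, and 4.10 and 4.72 untreated and 9.80 and 7.57 with TGF-β in SOX4-shRNA cells, from 133 to 372 reads. The TGF-β libraries were about 2 times the untreated ones for either shRNA. The log2 fold change was 0.94 ± 0.15, adjusted p = 0.0146, in scrambled-shRNA cells and 0.83 ± 0.15, adjusted p = 0.0180, in SOX4-shRNA cells, with ratios of group means of 2.13 and 1.97. With knockdown it was -0.05 ± 0.15 and -0.15 ± 0.15, with overlapping libraries.

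HSPA5 encodes BiP, the main ER chaperone and the gene whose promoter is shown above (chr9:127997132-128003661 in GRCh37). It was at 345 and 401 FPKM untreated and 651 and 602 with TGF-β in scrambled-shRNA cells, and 458 and 534 untreated and 810.3 and 581 with TGF-β in SOX4-shRNA cells. In scrambled-shRNA cells the TGF-β libraries were 1.68 times the untreated ones by group means (0.75 ± 0.17, adjusted p = 0.0395). In SOX4-shRNA cells the ratio was 1.40 (0.47 ± 0.17, adjusted p = 0.139), and the 2 TGF-β libraries, at 810.3 and 581 FPKM, differed widely. The knockdown differences were 0.41 ± 0.17, adjusted p = 0.240, in untreated cells, where the libraries did not overlap, and 0.13 ± 0.17 with TGF-β.

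EDEM1 takes misfolded glycoproteins to degradation (chr3:5229331-5261643 in GRCh37, with an unnamed gene annotated on the other strand). It was at 16.3 and 18.2 FPKM untreated and 25.5 and 26.2 with TGF-β in scrambled-shRNA cells, and 15.7 and 17.1 untreated and 21.2 and 19.3 with TGF-β in SOX4-shRNA cells. The highest 2 libraries were those of scrambled-shRNA cells with TGF-β, with a TGF-β difference of 0.56 ± 0.11, adjusted p = 0.0286, and the difference in SOX4-shRNA cells was 0.29 ± 0.11, adjusted p = 0.183. With TGF-β the knockdown libraries were below the controls (-0.34 ± 0.11, adjusted p = 0.186).

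The other ER members of the whole-read fit missed the threshold for TGF-β in scrambled-shRNA cells, at adjusted p of 0.0608 to 0.466. PDIA4, a disulfide isomerase, gave 0.42 ± 0.11, adjusted p = 0.0608. DNAJC3, the co-chaperone p58IPK, gave 0.62 ± 0.17, adjusted p = 0.0654. CALR, the lectin chaperone calreticulin, was at 550.1 and 552 FPKM untreated and 671 and 683 with TGF-β in scrambled-shRNA cells, and 624 and 624 untreated and 754 and 745 with TGF-β in SOX4-shRNA cells and gave 0.30 ± 0.08, adjusted p = 0.0752. SEL1L, the adaptor of the HRD1 degradation complex, gave 0.47 ± 0.16, adjusted p = 0.127. HSP90B1, the chaperone GRP94, was at 413 and 440.2 FPKM untreated and 591 and 532 with TGF-β in scrambled-shRNA cells, and 452 and 563 untreated and 695 and 485 with TGF-β in SOX4-shRNA cells and gave 0.39 ± 0.18, adjusted p = 0.231. SDF2L1, which keeps BiP cycling, ran from 23.9 to 59.2 FPKM and gave 0.35 ± 0.26, adjusted p = 0.466.

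XBP1 itself was at 4.52 and 4.40 FPKM untreated and 7.06 and 7.46 with TGF-β in scrambled-shRNA cells, and 3.93 and 5.84 untreated and 8.65 and 9.12 with TGF-β in SOX4-shRNA cells, or at 10 times these values. All TGF-β libraries were above all untreated ones, and the differences of 0.60 ± 0.17, adjusted p = 0.160, in scrambled-shRNA cells and 0.77 ± 0.17, adjusted p = 0.101, in SOX4-shRNA cells did not pass in the wider fit. With its transcripts summed the second became 0.37. HERPUD1, an ER membrane degradation factor, was at 12.9 and 10.8 FPKM untreated and 25.7 and 28.4 with TGF-β in scrambled-shRNA cells, and 8.44 and 18.6 untreated and 38.3 and 31.6 with TGF-β in SOX4-shRNA cells at its most probable readings. Its TGF-β comparisons were not settled and were not tested, and its knockdown differences were 0.08 ± 0.33 and 0.36 ± 0.33. CRELD2, which holds the same promoter element as HSPA5, was at 1.78 to 3.03 FPKM or 10 times that, with TGF-β differences of -0.05 ± 0.17 and 0.08 ± 0.17. Members with the ER stress response element covered the range from -0.05 (CRELD2) to 0.75 (HSPA5) for TGF-β in scrambled-shRNA cells, and DNAJB9 and EDEM1, both called there, had no match in the window.

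**Figure D4:**
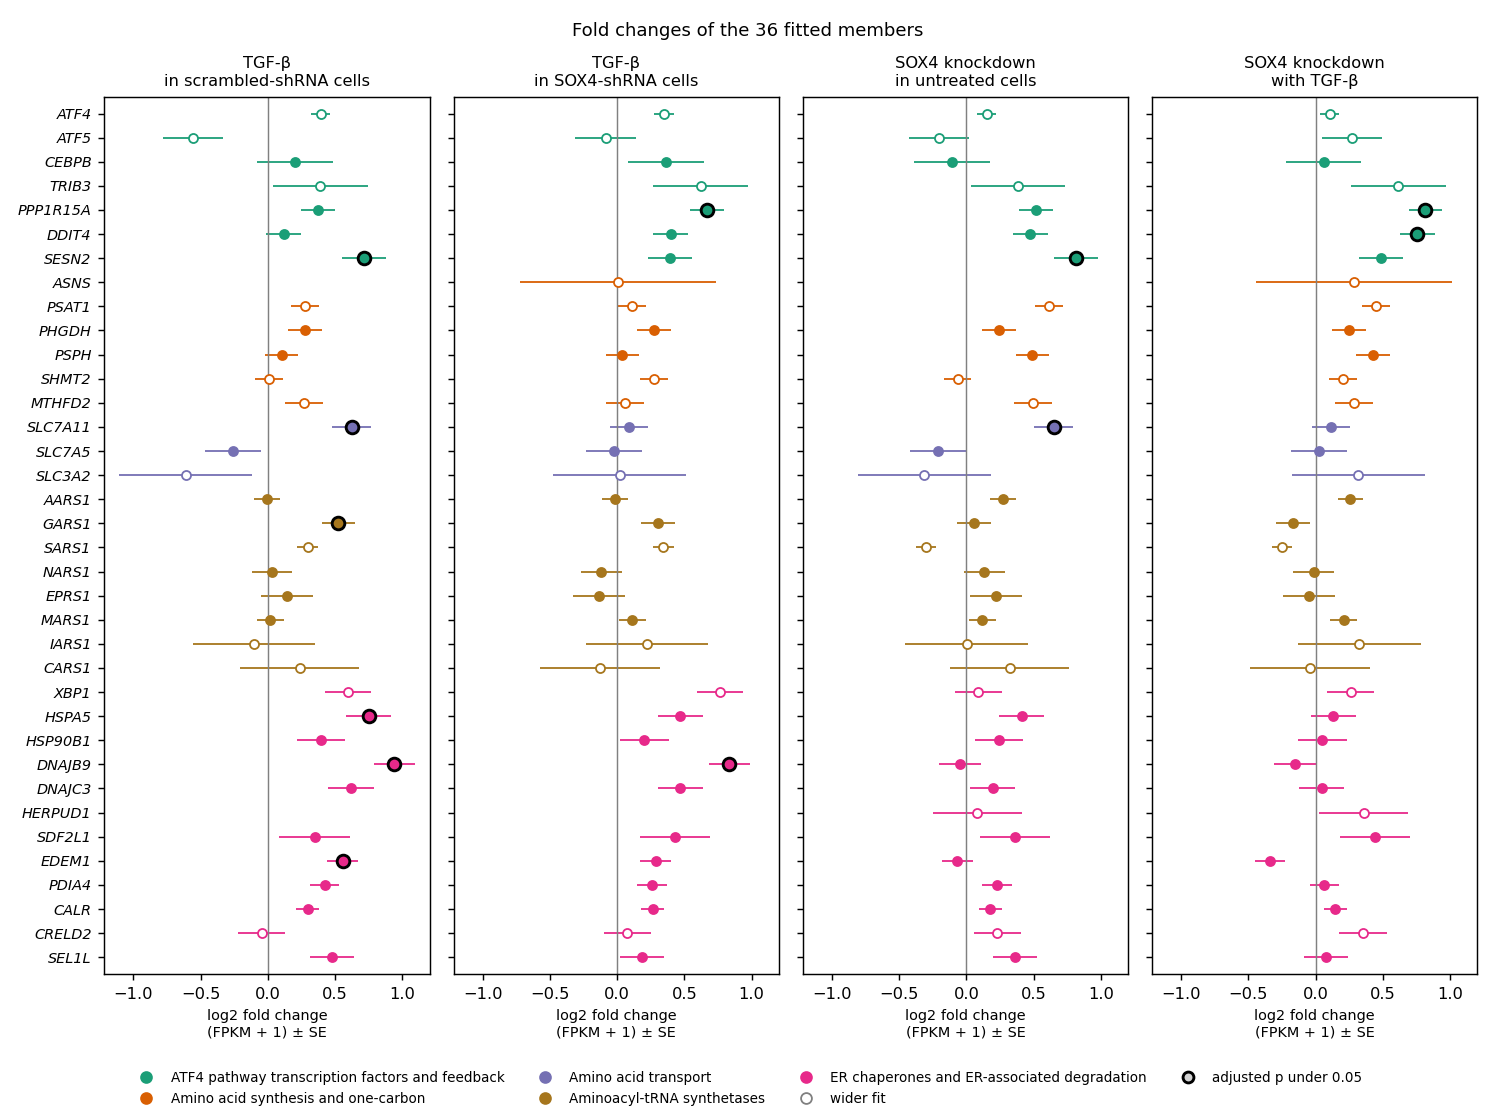
Log2 fold change ± SE on the log2(FPKM + 1) scale (horizontal axes) of the 36 tested members (vertical axis, ordered by role) in the 4 comparisons (panels). Filled points are from the whole-read fit, open points from the wider fit, and black rims mark adjusted p under 0.05; the rims number 6, 2, 2 and 2 from left to right.

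Whether the TGF-β response differed with SOX4 knockdown was tested by the interaction term, and 0 of the 22 members passed in limma. Over all 5435 genes 2 passed, neither of them a member, 1 in each direction (0.0184% each), with 161 genes (2.96%) and 1 member (SLC7A11) at an unadjusted p under 0.05. Limma-voom on the whole reads called 0 genes and 0 members. The wider fit called 0 of 13 members, also with 0 at an unadjusted p under 0.05, and of its genes 0 higher and 0.0193% lower. The interaction of SLC7A11 was -0.53 ± 0.20, of SESN2 -0.32 ± 0.23 and of EDEM1 -0.27 ± 0.16, which are the 3 members below 0 with the smallest p. Above 0 these were PPP1R15A at 0.30 ± 0.18, DDIT4 at 0.28 ± 0.19 and, in the wider fit, SHMT2 at 0.27 ± 0.15. The adjusted p was 0.995 or more in each. The comparisons above in which a member passed for one shRNA or one treatment and not for the other therefore do not show a difference between them.

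Another 67 genes of the same pathways were examined as a wider list, with 30 in the whole-read fit, 25 in the wider fit, where 0 were called in any comparison, and 12 in neither. The 3 ER stress sensors gave no call. PERK (EIF2AK3) was at 3.83 and 4.35 FPKM untreated and 6.01 and 5.35 with TGF-β in scrambled-shRNA cells, and 5.26 and 6.68 untreated and 6.24 and 4.60 with TGF-β in SOX4-shRNA cells. IRE1 (ERN1) was at 1.49 and 1.71 FPKM untreated and 1.61 and 1.47 with TGF-β in scrambled-shRNA cells, and 1.10 and 1.12 untreated and 1.37 and 1.39 with TGF-β in SOX4-shRNA cells. ATF6 was at 7.88 and 9.07 FPKM untreated and 7.52 and 7.14 with TGF-β in scrambled-shRNA cells, and 9.31 and 9.79 untreated and 9.10 and 6.97 with TGF-β in SOX4-shRNA cells. Their log2 fold changes with TGF-β in scrambled-shRNA cells were 0.39 ± 0.17, -0.03 ± 0.12 and -0.18 ± 0.14.

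Among the 30, TGF-β in scrambled-shRNA cells gave 5 calls, all higher, where 4.65% of all genes were called higher and 2.01% lower. SEC24D, a subunit of the COPII coat that carries cargo out of the ER, was at 19.4 and 18.3 FPKM untreated and 42.6 and 41.3 with TGF-β in scrambled-shRNA cells, and 16.5 and 16.0 untreated and 30.7 and 28.1 with TGF-β in SOX4-shRNA cells. Its TGF-β differences were 1.11 ± 0.11 and 0.81 ± 0.11 (adjusted p = 0.00172 and 0.00434), and it was called lower with knockdown in TGF-β-treated cells (-0.50 ± 0.11, adjusted p = 0.0425). The others were the secreted glycoprotein gene STC2 (0.86 ± 0.11), the ER-bound transcription factor gene CREB3 (0.64 ± 0.11), the ER oxidase gene ERO1B (0.67 ± 0.14) and the amino acid transporter gene SLC38A2 (0.63 ± 0.13), with adjusted p from 0.00596 to 0.0308. In SOX4-shRNA cells SEC24D, STC2, CREB3 and the degradation factor gene DERL2 (0.64 ± 0.12) were called higher, and FARSB, a subunit of phenylalanyl-tRNA synthetase, was called lower, against 5.28% and 1.97% of all genes (-0.49 ± 0.11, adjusted p = 0.0400). With knockdown in untreated cells 1 gene was called, GDF15, a stress-induced secreted factor, which was lower, as were 3.1% of all genes. GDF15 was at 9.91 and 6.98 FPKM untreated and 5.73 and 6.57 with TGF-β in scrambled-shRNA cells, and 3.97 and 2.13 untreated and 4.09 and 4.16 with TGF-β in SOX4-shRNA cells, and its difference was -1.24 ± 0.23, adjusted p = 0.0265.

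By role, 9 of the 20 other ER folding and degradation genes listed were in the whole-read fit. For TGF-β in scrambled-shRNA cells all 9 lay above 0, with a median of 0.35. Both TGF-β libraries were above both untreated ones in all 9, against 28.6% of all genes. In SOX4-shRNA cells all 9 lay above 0 with a median of 0.32, and both TGF-β libraries were higher in 6, against 19.8% of all genes. Of 22 other ATF4-linked genes listed, the 6 tested there had TGF-β medians of 0.27 and 0.40, with 5 above 0 in each. Of 14 sensors and regulators listed, the 9 tested had medians of -0.03 and -0.12. For knockdown the 9 other ER folding and degradation genes tested had medians of -0.11 untreated and -0.06 with TGF-β. Of 11 other tRNA synthetase genes listed, 6 were tested, and 5 of these lay below 0 in each TGF-β comparison. Their medians were -0.17 and -0.22. Listed genes outside the whole-read fit are not in these counts.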

How the data were processed

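RNA from the 8 libraries was sequenced as single reads, per the labels' protocols. One label names polyA RNA and another a stranded ribosomal-depletion kit, so the RNA fraction is unsure. TopHat2 2.0.9, Cufflinks 2.2.1, Cuffdiff and hg19 are named in the submitters' processing notes. The deposited values, by RefSeq transcript and library, were taken to be FPKM as the authors' Cufflinks run would write them. How libraries were scaled to one another is not given in the sources used here. Of its 48175 transcripts, 97.8% matched a symbol, and 34.1% of cells had lost the decimal mark. For genes with 1 transcript, lost marks were restored by searching for whole reads in at least 6 cells (93.8% of 5610 genes), within 0.003 reads. Readings were weighed with replicate spread, level and effect size, so restored values favour small differences between groups. They also favour close agreement of the 2 libraries of a group, which can make the SE and p-values too small. The size of either effect was not tested. With known marks hidden, 510 of the 521 genes for which the weighing reached a probability of 0.95 or more were restored correctly. Genes below that probability are not in this count. The 2 members HSPA5 and SLC7A5 entered the whole-read fit by this joint weighing, a choice made after seeing the data. A comparison was tested if readings no further apart than 0.2 log10 carried a posterior probability of 0.95 or more. Genes had at least 1 FPKM in at least 2 libraries. Limma 3.58.1 (R 4.3.3) with an intensity trend was fitted to log2(FPKM + 1) of all 4 groups. Groups came from the titles. The members and lists were chosen with earlier results of these data known. Full values were given for ATF4, DDIT3, XBP1, HSPA5, TRIB3, ASNS, CHAC1, PSAT1, PHGDH, SLC7A11, called members, and, where none was called, the 3 per direction with the smallest p. The alternatives tried are given in the closing section. Replicate numbers were not used as pairs, since the labels tie them to no shared culture or day.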

Additional observations from a re-analysis of the deposited data

How the results depend on the processing

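The 12 member calls kept their direction in all 263 fits under the alternatives that used the restored readings, and 175 of these fits kept the call. Of the 88 that lost it, 51 were among the 96 fits with a library left out. With each library left out in turn, the genes called ranged from 21 to 421 (main 361) for TGF-β in scrambled-shRNA cells, 172 to 274 (393) for TGF-β in SOX4-shRNA cells, 45 to 239 (231) for knockdown untreated, 33 to 206 (209) for knockdown with TGF-β and 0 to 1 (2) for the interaction. The members called ranged from 0 to 8, 0 to 2, 0 to 1, 0 to 2 and 0 to 0. Over all 175 member comparisons tested, 62 turned direction without at least 1 library, and 0 of these were called. Among those followed one by one, these were HSPA5 for knockdown with TGF-β without SOX4-shRNA TGF-β replicate 1 (-0.11, range to 0.37) and SLC7A11 for TGF-β in SOX4-shRNA cells without SOX4-shRNA untreated replicate 1 (-0.086, range to 0.26).

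In the order of the 4 comparisons above, the fit of all kept genes together called 217 and 251 genes for TGF-β and 138 for knockdown with TGF-β, and 0, 0, 0 and 1 members. It called 28 genes for the interaction. Fitting the compared groups alone called 943, 109, 76 and 138 genes, and 11, 0, 0 and 2 members. No filter on low values called 235 genes for the first and 128 for the last, 0 for the interaction, and 2, 1, 0 and 1 members. A minimum of 5 FPKM called 130 genes for knockdown with TGF-β and 1 member for knockdown untreated. For that comparison median-of-ratios scaling, upper-quartile scaling and no intensity trend also gave 1 member each. For the interaction these 3, and a robust variance prior, called 1 gene, and limma-voom on the whole reads, added after seeing the data, called 0.

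Same-numbered libraries of the 2 shRNAs deviated together within a treatment (correlations of 0.50 untreated and 0.31 with TGF-β) and in opposite directions across treatments (-0.57 to -0.24). A fit with the replicate number as a block called 163, 224, 133 and 99 genes, 1 for the interaction, and 1, 1, 0 and 2 members. Crossing the numbers, chosen after seeing the data, called 1262, 1179, 791 and 600 genes and 13, 10, 8 and 5 members. 

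Read at the next most probable decimal marks, whose probability was at most 0.00578 for the members of the whole-read fit, these values reversed: DNAJB9 with TGF-β (-2.13 in scrambled-shRNA and -2.23 in SOX4-shRNA cells), HSPA5 (-2.55 and -2.83), PHGDH (-2.90 and -2.92), EDEM1 (-2.69) and GARS1 (-1.10) in scrambled-shRNA cells, PPP1R15A with TGF-β in SOX4-shRNA cells (-2.39), with knockdown and TGF-β (-2.24) and for the interaction (-2.76), DDIT4 with knockdown and TGF-β (-0.88) and for the interaction (-1.35), and SESN2 with knockdown untreated (-2.30). Summing transcripts turned PSAT1 with knockdown and TGF-β to -0.32. Apart from the altered readings, the causes were not tested. The lowest read count of a called member with whole reads was 133 (DNAJB9), and lost decimal marks left 3 members untested.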
